A study of Mus musculus with 8 samples.

Results

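The genes described here are 9 markers of the stem cells at the base of the intestinal crypt, namely Lgr5, Olfm4, Smoc2, Gkn3, Msi1, Mex3a, Clca3b, Rgmb and Prom1. They were chosen by name from the 54532 genes of the count table, after gene identifiers had been matched to symbols, by a rule that uses no measured value. Lgr5 and Smoc2 are among the genes that the study names for these libraries, and their direction is not independent evidence. All 9 were measured in 8 libraries of mouse intestinal organoids, which the study describes as small intestinal, 4 labelled control and 4 labelled RANKL. Organoids are self-renewing epithelial cultures, which in this study were grown from isolated crypts in Matrigel with EGF, the BMP antagonist NOGGIN and R-spondin, and RANKL is the cytokine that activates RANK, a receptor of the TNF receptor family. The labels give no strain, sex, age or genotype, although the study kept its mouse lines on a C57BL/6J background, and how much RANKL was given here and for how long is not stated in the text of the study. Nothing says that libraries of a group came from separate cultures or animals, so that p-values measure only the spread between these libraries. All 9 genes were in the table and passed the filter on low counts.

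Crypt base columnar cells sit between Paneth cells at the bottom of the crypt and renew the whole epithelium. WNT ligands, amplified by R-spondins, maintain them, whereas BMP signals, which are strong in the villus and held off in the crypt by antagonists, restrain them. The 9 genes differ in what they encode. Gkn3, Smoc2 and Olfm4 encode secreted proteins, Lgr5, Rgmb and Prom1 proteins of the cell membrane, Msi1 and Mex3a RNA-binding proteins, and Clca3b a member of the CLCA family of calcium-activated chloride channel regulators.

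RANKL-treated organoids had lower Gkn3, Lgr5, Smoc2 and Prom1 and higher Msi1, Mex3a and Clca3b than control organoids, while Rgmb and Olfm4 did not pass the threshold. The falls spanned a wide range. Gkn3 kept 5.43% of its control level (95% interval 3.03 to 9.71%), Lgr5 21.4% (16.1 to 28.4%), Smoc2 59.1% (49.3 to 70.8%) and Prom1 69.5% (60.2 to 80.2%). In the other direction, Msi1 reached 265% of its control level (203 to 345%), Mex3a 169% (138 to 208%) and Clca3b 160% (136 to 188%). Calls come from edgeR's quasi-likelihood test at an adjusted p of 0.05 (Benjamini-Hochberg, over all 9971 tested genes). Against a background of 25.9% of all tested genes past it, 13.6% higher and 12.4% lower, 3 of the 9 genes were higher and 4 lower. In 7 of the 9, no RANKL library overlapped a control library, against 24.6% of all tested genes. The median log2 fold change of the 9 genes was -0.30 and the median of its absolute size 0.76, against 0.00 and 0.26 over all tested genes. In bulk samples, fewer cells of a type and less RNA per cell cannot be told apart.

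**Figure D1:**
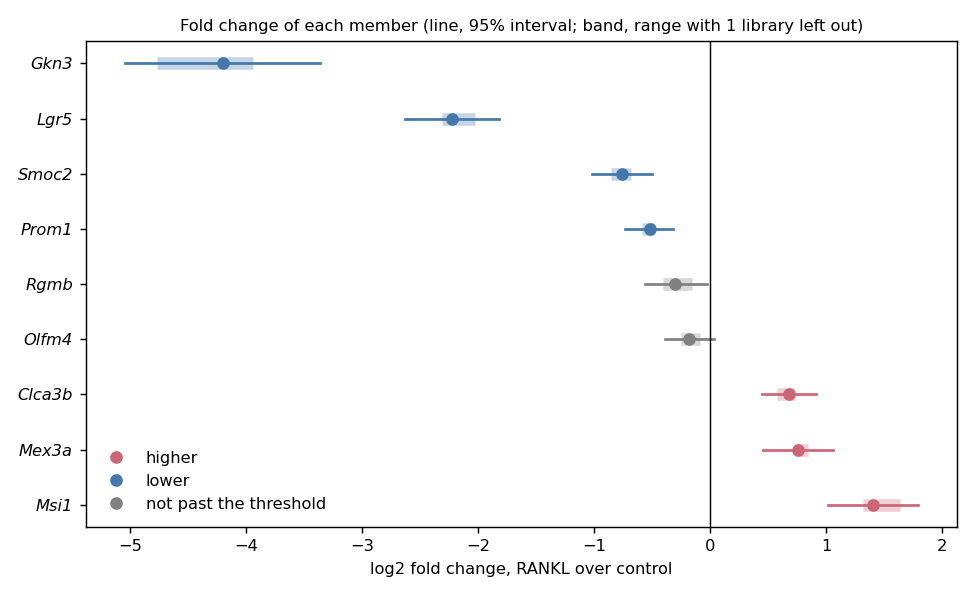
Log2 fold change of each of the 9 genes, RANKL over control, with its 95% interval (line) and the range with each library left out in turn (band). Gkn3 and Lgr5 lie far to the left at -4.20 and -2.22, Smoc2 and Prom1 at -0.76 and -0.52, Rgmb and Olfm4 are not past the threshold, and Clca3b, Mex3a and Msi1 lie between 0.68 and 1.40.

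Library totals ran from 583663 to 7807298 counts, and the median was 3911808 for control and 1613410 for RANKL libraries. Control replicate 4 (583663 counts) and RANKL replicate 1 (613135 counts) were the shallow ones. CPM stands here for counts scaled to a common, TMM-adjusted library total, and a single count was worth between 0.127 and 1.72 CPM. Since depth differed with the group, the fit was repeated with each library's log2 total as a further term, chosen after the data were seen, and without the 2 shallow libraries. The same 3 genes were called higher and the same 4 lower in both. The label of the cultures was checked against marker genes. All 6 of a short list of stem cell markers passed the filter, as did 12 of 13 Paneth, 10 of 10 goblet and 12 of 12 enterocyte markers. Of 14 stromal, endothelial and immune markers, 1 had enough counts to test. This was Pdgfrb, a receptor gene of pericytes and fibroblasts, which was higher with RANKL (3.87 CPM on average in control against 19.0 CPM, log2 fold change 2.53, adjusted p = 7.0e-08). The summed level of the 14 ran from 9.80 to 24.1 CPM in control and from 22.7 to 30.7 CPM in RANKL libraries. Pdgfrb alone, at 2.16 to 5.37 CPM in control and 17.2 to 23.5 CPM in RANKL libraries, was most of the RANKL sum. The sum thus says little about the other markers, of which some were lower and some higher with RANKL on average. Cd3e, Cd79a and Dcn had 0 counts in all 8 libraries, and the part of such cells in the results was not tested.

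The primers of these libraries bind the poly(A) tail, so that reads come from the 3′ end of a transcript and counts do not grow with its length. Levels in CPM can therefore be set side by side between genes, apart from differences in how well each 3′ end is captured. In control organoids the mean levels ran from Olfm4 (1162 ± 159 CPM, SD, n = 4) through Prom1 (300 ± 26.9), Smoc2 (154 ± 27.6), Clca3b (122 ± 19.8), Rgmb (87.0 ± 13.6), Lgr5 (45.1 ± 3.53), Mex3a (30.4 ± 1.53) and Gkn3 (20.6 ± 5.0) down to Msi1 (12.8 ± 3.80). The control ranges of Smoc2 and Clca3b, of Clca3b and Rgmb, and of Gkn3 and Msi1 overlapped. In RANKL-treated organoids the order was Olfm4 (1026 ± 107 CPM), Prom1 (207 ± 12.3), Clca3b (193 ± 13.8), Smoc2 (89.0 ± 9.05), Rgmb (72.8 ± 7.74), Mex3a (52.3 ± 5.62), Msi1 (37.1 ± 3.10), Lgr5 (10.3 ± 2.56) and Gkn3 (0.914 ± 0.877). There the ranges of Prom1 and Clca3b and of Smoc2 and Rgmb overlapped. Msi1 was the lowest of the 9 in control and stood above Lgr5 and Gkn3 in every RANKL library, and Clca3b moved from below to above Smoc2.

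**Figure D2:**
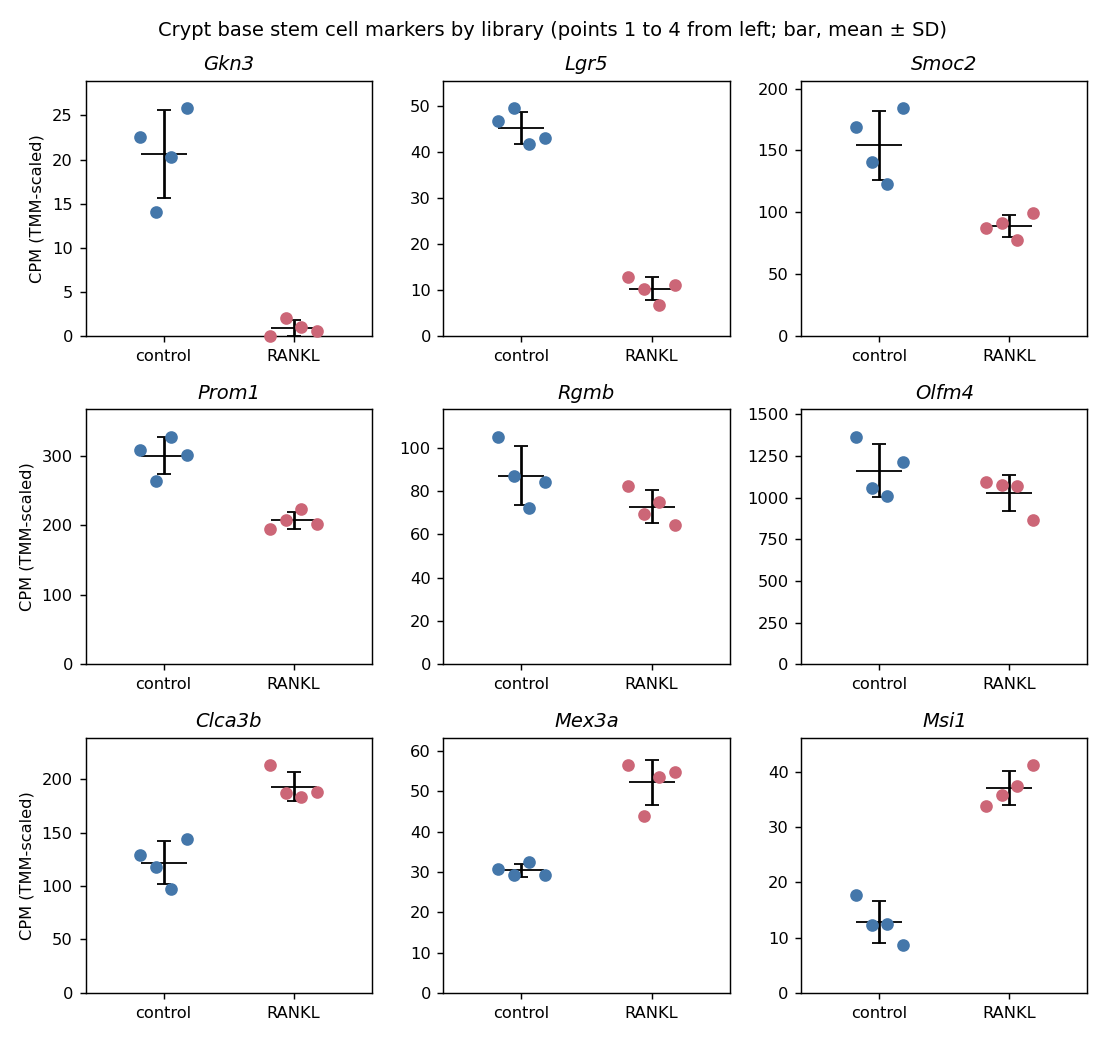
Level in CPM of the 9 genes in each library, with control replicates 1 to 4 in blue and RANKL replicates 1 to 4 in red from left to right, and the mean ± SD of each group in black. Each panel has its own axis from 0, and the groups overlap in Rgmb and Olfm4 and in no other panel.

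Gkn3 encodes a secreted protein of the gastrokine family, whose other members are stomach proteins. The gene lies on chromosome 6 from 87383256 to 87388935, minus strand (ENSMUSG00000030048, GRCm38). The control libraries, replicates 1 to 4 in order here and for the genes that follow, held 177, 52, 80 and 15 counts, and the RANKL libraries 0, 3, 2 and 1. Every control library was at 14.0 CPM or more and every RANKL library at 2.06 CPM or less, so the groups did not overlap. The log2 fold change was -4.20 (standard error 0.41, adjusted p = 2.0e-09), the lowest of all 9971 tested genes. It rests on 6 counts in the RANKL group, and Gkn3 passed the filter on low counts through its control libraries alone. The log2 fold change ran from -4.77 to -3.94 with a library left out, and the rank was taken from the fit of all 8 libraries only. As pooled counts the ratio is 19.2-fold lower, with a 95% interval from counting alone of 8.72 to 52.7. In percent of the control level this is 5.21% (1.9 to 11.5%), a wider interval than that of the fit (3.03 to 9.71%), which may thus be too narrow. The 0 counts in RANKL replicate 1, a shallow library, allow up to 4.84 CPM. Its paralogues Gkn1 and Gkn2, which lie beside it on the chromosome, had 0 counts in all 8 libraries.

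Smoc2 encodes a secreted calcium-binding protein of the extracellular matrix and lies on chromosome 17 from 14279506 to 14404790, plus strand (ENSMUSG00000023886). The control libraries measured 169, 141, 123 and 184 CPM and the RANKL libraries 87.2, 91.5, 77.7 and 99.4 CPM. The highest RANKL library lay below the lowest control library. Its log2 fold change was -0.76 (95% interval -1.02 to -0.50, adjusted p = 3.2e-05), or a change of -40.9% (-50.7 to -29.2%).

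Olfm4 encodes a secreted glycoprotein that depends on Notch in the mouse intestine, and lies on chromosome 14 from 79984081 to 80023139, plus strand (ENSMUSG00000022026). It was the most abundant of the 9, with 1364, 1059, 1012 and 1211 CPM in the control libraries and 1093, 1076, 1070.2 and 866 CPM after RANKL. The groups overlapped, since RANKL replicates 1 to 3 lay above control replicates 2 and 3. The log2 fold change was -0.18 (95% interval -0.39 to 0.03, adjusted p = 0.22), which allows a change from a loss of 23.9% to a gain of 2.29%. An exon of Gm6999 overlaps Olfm4 on its own strand, and reads of the overlap cannot be assigned to either gene. The highest Olfm4 level thus went with the smallest change among the 9.

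Lgr5 encodes a receptor of R-spondins and is the most widely used marker of crypt base columnar cells. It lies on chromosome 10 from 115450311 to 115587780, minus strand (ENSMUSG00000020140). The control libraries held 366, 184, 164 and 25 counts and the RANKL libraries 8, 15, 13 and 20. In CPM these were 46.6, 49.4, 41.6 and 43.0 against 12.9, 10.3, 6.78 and 11. The control libraries were close to each other and each at more than 3 times the highest RANKL library, and its log2 fold change was number 4 from the bottom among all tested genes (-2.22, standard error 0.20, adjusted p = 3.0e-10). The related receptor Lgr4 did not pass the threshold, with 79.0 ± 19.4 CPM in control organoids against 82.3 ± 8.36 CPM (SD, n = 4 each) and a log2 fold change of -0.02 (adjusted p = 0.94), and Lgr6 had 1 count in each group. Lgr5 thus made up the smaller part of the Lgr4 and Lgr5 transcripts in both groups.

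Rgmb encodes a co-receptor of BMPs that also binds neogenin, and lies on chromosome 17 from 15803188 to 15831039, minus strand (ENSMUSG00000048027). Its level was 105, 86.7, 72.0 and 84.3 CPM in the control libraries, against 82.3, 69.5, 75.1 and 64.3 CPM in the RANKL libraries. The groups overlapped, as control replicate 3 was below RANKL replicates 1 and 3. With a log2 fold change of -0.30 (95% interval -0.56 to -0.03, adjusted p = 0.10), Rgmb was near the threshold. Its interval leaves out 0, but it did not pass the threshold over all genes. Without control replicate 3 it was -0.41 and past the threshold (adjusted p = 0.012).

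Prom1 encodes prominin, or CD133, a cholesterol-binding glycoprotein of membrane protrusions, and lies on chromosome 5 from 43993620 to 44102032, minus strand (ENSMUSG00000029086). Control libraries were at 308, 263, 327 and 301 CPM, and RANKL libraries at 195, 208, 224 and 202 CPM. No RANKL library reached the lowest control library, and the log2 fold change was -0.52 (95% interval -0.73 to -0.32, adjusted p = 0.00019). Its paralogue Prom2 had 1 count in all 8 libraries together.

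Msi1 encodes Musashi, an RNA-binding protein that controls the translation of its targets, and lies on chromosome 5 from 115429599 to 115455698, plus strand (ENSMUSG00000054256). The counts were 140, 46, 49 and 5 in the control libraries, against 21, 52, 72 and 75 after RANKL. This is 17.8, 12.3, 12.4 and 8.60 CPM against 33.9, 35.8, 37.5 and 41.2 CPM, so that the lowest RANKL library was well above the highest control library. The log2 fold change was 1.40 (standard error 0.19, adjusted p = 7.8e-07), the largest rise of the 9 and number 250 from the top among all tested genes. With the library total as a covariate it was 1.86. Msi2, the other Musashi gene, measured 37.8 ± 3.95 CPM in control against 42.3 ± 4.27 CPM in RANKL-treated organoids (log2 fold change 0.16, adjusted p = 0.47).

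Mex3a encodes an RNA-binding protein with a RING domain that is known from slowly cycling Lgr5-positive cells, and lies on chromosome 3 from 88532395 to 88541396, plus strand (ENSMUSG00000074480). Control libraries lay close together at 30.8, 29.2, 32.4 and 29.2 CPM, below RANKL libraries at 56.5, 44.0, 53.7 and 54.9 CPM. All RANKL libraries were above all control libraries, and the log2 fold change was 0.76 (95% interval 0.46 to 1.06, adjusted p = 0.00018). Of its paralogues, Mex3c had enough counts to test and did not pass the threshold (log2 fold change 0.12, adjusted p = 0.62).

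Clca3b lies on chromosome 3 from 144822623 to 144849357, minus strand (ENSMUSG00000037033), in a cluster of CLCA genes. The control libraries measured 129, 118, 97.3 and 144 CPM and the RANKL libraries 213, 187, 183 and 188 CPM, again without overlap. Its log2 fold change was 0.68 (95% interval 0.45 to 0.91, adjusted p = 3.3e-05). Of 7 other genes of the family, 4 were tested, and 3 were higher and 0 lower. Clca4b (144910921 to 144932529) rose from 42.1 ± 8.36 CPM (SD, n = 4) to 143 ± 16.5 CPM (log2 fold change 1.73, adjusted p = 2.3e-11). The directly neighbouring Clca3a2 (144796559 to 144819494) also rose, with 13.4 ± 2.77 against 41.2 ± 6.07 CPM (log2 fold change 1.66, adjusted p = 2.7e-08). Clca3a1 (144729677 to 144760977) had a log2 fold change of 0.77 (adjusted p = 0.012) with overlap between the groups, and its call was lost without RANKL replicate 4, where the log2 fold change was 0.53. Clca1, a goblet cell gene further along the cluster, was at 148 ± 28.0 and 160 ± 25.5 CPM (log2 fold change 0.08, adjusted p = 0.71). Sequences of these genes are similar, and how reads that match several of them were counted is not given in the sources used here, so that the split between Clca3b and its neighbours is uncertain.

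For 6 of the 9 genes, the RefSeq table of promoters on GRCm38.p6 held 9 entries of 300 bases, from 250 before to 50 after a start. The 250 bases before the start are shown for Gkn3 (chr6:87388936-87389185, minus strand), the gene that fell most, for Olfm4 (chr14:80000052-80000301, plus strand), which did not pass the threshold, and for Mex3a (chr3:88531696-88531945, plus strand) and Clca3b (chr3:144849303-144849552, minus strand), which rose. They are written 5′ to 3′ on the strand of the gene, with motif matches in capitals.
Gkn3: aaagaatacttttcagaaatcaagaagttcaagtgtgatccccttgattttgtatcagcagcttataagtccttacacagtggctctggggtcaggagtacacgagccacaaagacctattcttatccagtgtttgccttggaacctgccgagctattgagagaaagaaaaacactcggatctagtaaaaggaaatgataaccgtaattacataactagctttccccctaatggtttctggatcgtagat
Olfm4: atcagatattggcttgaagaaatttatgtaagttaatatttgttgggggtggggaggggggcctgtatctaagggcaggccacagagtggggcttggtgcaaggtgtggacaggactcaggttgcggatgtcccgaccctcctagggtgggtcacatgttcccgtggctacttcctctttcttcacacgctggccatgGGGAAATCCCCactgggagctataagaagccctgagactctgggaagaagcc
Mex3a: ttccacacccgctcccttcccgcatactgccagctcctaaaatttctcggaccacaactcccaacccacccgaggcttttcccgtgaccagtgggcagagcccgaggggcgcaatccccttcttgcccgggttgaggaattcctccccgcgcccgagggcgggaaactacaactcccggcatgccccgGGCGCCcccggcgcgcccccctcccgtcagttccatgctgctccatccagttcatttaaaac
Clca3b: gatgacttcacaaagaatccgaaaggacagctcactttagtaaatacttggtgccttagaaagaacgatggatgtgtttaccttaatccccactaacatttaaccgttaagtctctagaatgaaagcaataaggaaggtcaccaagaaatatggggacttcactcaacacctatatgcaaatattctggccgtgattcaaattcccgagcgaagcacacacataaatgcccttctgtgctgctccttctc
Both strands were searched for the TCF/LEF motifs CTTTGAT and CTTTGTT, the E-box CAGCTG, the SMAD motifs GTCTAGAC and GGCGCC, and the NF-kB motif. Olfm4 held NF-kB matches at 52 and 51 bases before the start, which overlap each other. This motif was in 4.51% of all 32851 promoters of the table. The capitals in Mex3a are GGCGCC, at 62 bases before the start, which was also found 21 bases before a start of Rgmb and in 11.9% of all promoters. The windows of Gkn3, Clca3b and Prom1 held no match. No entry of the 6 genes held the other motifs. Of all promoters, 3.73% held the first TCF/LEF motif, 5.85% the other, 16.3% the E-box and 0.213% the longer SMAD motif. The GC content of the 300 bases was 42.7% in Gkn3, 45% in Clca3b, 52.3% in Olfm4 and 63.0% in Mex3a. A match is a description of the letters, and among the genes with an entry those called in the same direction shared no motif.

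Whether the 9 genes changed by different amounts was asked of their ratios within a library, which do not depend on how libraries are scaled. The log2 ratio of each of 36 pairs, with 0.5 added to each count, was compared between the groups by an exact two-sided permutation test. In 31 pairs the libraries of the groups did not overlap (exact permutation p = 0.0286, the smallest that 70 assignments allow, and adjusted p = 0.0332 over 36 pairs). The pairs share genes, and 7 of the 9 genes did not overlap on their own, so the 36 tests are not independent. For pairs drawn from all tested genes, the share without overlap was not computed. The genes fell into steps. Gkn3 lost 3.88-fold more than Lgr5 and 9.91-fold more than Smoc2, and Lgr5 lost 2.55-fold more than Smoc2 and 3.03-fold more than Prom1. The extremes were Gkn3 and Msi1, whose ratio changed 49.8-fold, and the ratio of Lgr5 to Msi1 changed 12.8-fold, from a log2 ratio of 1.83 ± 0.36 in control to -1.85 ± 0.45 with RANKL (SD, n = 4 each). Lgr5 transcripts were thus more abundant than those of Msi1 in control and less abundant in RANKL-treated organoids.

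The 5 pairs with overlap lay within 2 sets of genes, one of Smoc2, Prom1, Rgmb and Olfm4 and the other of Mex3a and Clca3b. Not every pair of the first set overlapped. The log2 ratio of Olfm4 to Smoc2 changed by 0.60 and that of Smoc2 to Rgmb by -0.53, both without overlap (exact permutation test, adjusted p = 0.0332 each). Smoc2 and Prom1 differed by -0.25 in the change of their log2 ratio (exact permutation test, adjusted p = 0.242), Rgmb and Prom1 by 0.28 (adjusted p = 0.218), Olfm4 and Prom1 by 0.35 (adjusted p = 0.0643), Olfm4 and Rgmb by 0.07 (adjusted p = 0.353), and Mex3a and Clca3b by 0.10 (adjusted p = 0.571). For the 5 pairs with overlap, 4 against 4 libraries cannot show that the 2 genes changed equally. Olfm4 and Prom1 came nearest to separate groups (exact permutation test, p = 0.0571 before adjustment). Msi1 rose more than either Mex3a (1.72-fold) or Clca3b (1.85-fold), past the spread.

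**Figure D3:**
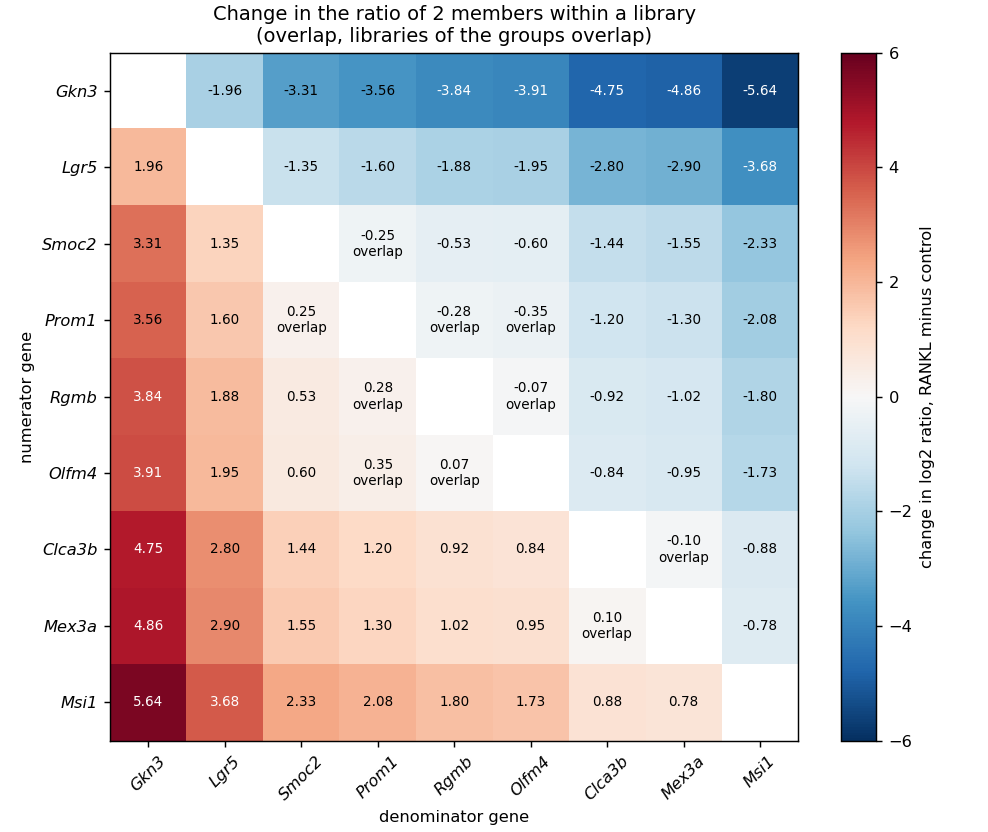
Change in the log2 ratio of the row gene to the column gene within a library, RANKL minus control, for all pairs of the 9 genes ordered by log2 fold change. Above the diagonal, values run from -5.64 for Gkn3 over Msi1 to -0.07 for Rgmb over Olfm4, and below it the same values stand with the opposite sign. The 5 pairs marked as overlap are those in which a RANKL library lay within the control range.

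The share of each gene in the summed CPM of all 9 gives the same picture as parts of a whole. Lgr5 made up 2.12 to 2.79% of the sum in control and 0.392 to 0.728% in RANKL libraries, and Gkn3 0.787 to 1.27% against 0 to 0.12%. Msi1 went from 0.423 to 0.813% up to 1.91 to 2.70%, Mex3a from 1.41 to 1.87% up to 2.56 to 3.6%, and Clca3b from 5.60 to 7.11% up to 10.6 to 12.3%. Olfm4 held 58.2 to 62.2% and 56.7 to 62.4%, more than the other 8 together in every library. The sum itself ran from 1738 to 2193 CPM in control and from 1527 to 1774 CPM in RANKL libraries and overlapped. Without Olfm4 it ran from 713 to 829 and from 648 to 681 CPM and did not overlap.

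Other genes known from intestinal stem cells were also split. In a list of 30 such genes, 25 were tested, of which 4 were higher and 10 lower, with a median log2 fold change of -0.25. Among the 10, the call of Soat1 held in 6 of 17 other fits, that of Nrn1 in 10 of 16, that of Ets2 in 14 of 17 and that of Phlda1 in 16 of 17. This list holds genes that the study chose to name on these samples and is not independent evidence of a direction. The 5 largest changes in it were those of Scn2b (1.69), Cd44 (1.61), Zbtb38 (-1.24), Ascl2 (1.10) and Vdr (-1.02), and Ephb2 (-0.76) and Axin2 (-0.90) were lower as well. Zbtb38, a zinc finger transcription factor, and Vdr, the vitamin D receptor, thus moved with Lgr5, and Ascl2, a stem cell transcription factor, moved with Msi1. Of 9 genes known from reserve stem cells or from several crypt cell types, Mex3a, Sox9 (log2 fold change 0.63) and Clu (1.22) were higher and Tert (-1.02), Hopx (-0.70) and Krt19 (-0.30) lower. The call of Clu, which measured 6.95 ± 5.73 CPM in control and 10.8 ± 3.35 CPM with RANKL, held in 11 of 16 other fits, and that of Krt19 in 12 of 17. Tert lost its call with the library total as a covariate.

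Among 18 WNT target and feedback genes, Lgr5 included, 11 were tested, 3 were higher and 4 lower, with a median of 0.11. Myc was one of the 4 that fell (log2 fold change -0.91, adjusted p = 0.029), and its call held in 10 of 16 other fits. Rnf43 and Znrf3, which remove WNT receptors from the cell surface and are opposed by Lgr5 with R-spondin, did not pass the threshold (log2 fold change 0.11 and 0.27). Of 12 genes of R-spondins and WNT receptors, 6 were tested, and Lrp6 was higher (0.46) and Fzd5 lower (-0.48). The call of Lrp6 was lost with the library total as a covariate. The R-spondin genes had 0 to 3 counts each in all libraries together, in cultures to which R-spondin was added.

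Of 15 genes of the BMP pathway, in which Rgmb acts, 11 were tested, 5 of them higher and 1 lower. The ligand gene Bmp2 (log2 fold change 4.30) and the targets Id3 (4.23), Id2 (2.43), Smad7 (2.07) and Id1 (1.74) were higher, and the ligand gene Bmp7 (-1.01) lower. The study names Bmp2, Id2 and Id3 as induced by RANKL in its organoids, and their direction is not independent evidence. The receptor genes Bmpr1a and Bmpr2 had log2 fold changes of 0.04 each (adjusted p = 0.90 and 0.88), and Neo1, which encodes neogenin, was at 82.8 ± 10.3 and 94.5 ± 14.7 CPM (log2 fold change 0.19, adjusted p = 0.30). Past the threshold were thus ligands and targets, and none of the tested receptors Bmpr1a, Bmpr2, Acvr1, Acvr2a and Neo1. Acvr2a (log2 fold change -0.70, adjusted p = 0.058) passed it without RANKL replicate 3 and with the library total as a covariate.

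Markers of other cells were read beside these results. All 8 tested of 10 M cell markers were higher, with a median log2 fold change of 4.00, while Gp2 had 0 counts throughout. The summed level of the list ran from 136.6 to 182.5 CPM in control and from 2163 to 2499 CPM in RANKL libraries. Spib alone, at 2.28 to 5.37 CPM in control and 1489 to 1760 CPM in RANKL libraries, was most of the RANKL sum. The study reports M cells in its RANKL-stimulated organoids, and this direction is not independent evidence. Of 10 proliferation genes, 0 were higher, and Pcna (-0.49) and Mki67 (-0.37) were lower. The call of Mki67 was lost in 4 and that of Pcna in 2 of 17 other fits, and the summed level of the 10 ran from 1645 to 1928 CPM in control and from 1461 to 1591 CPM in RANKL libraries. Paneth markers had 1 of 12 tested higher and 1 lower, goblet markers 1 and 1 of 10, enterocyte markers 1 and 1 of 12, enteroendocrine markers 3 and 0 of 10, and of the tuft markers 1 was tested and did not pass. Of the 9 calls in these lists, those of Defa17 (lower) and Guca2a (higher) held in every other fit, and the others were lost in 2 or more, Sct in 9 of 17. The part of M cells, proliferation or any other cell type in the changes of the 9 genes was not tested.

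**Figure D4:**
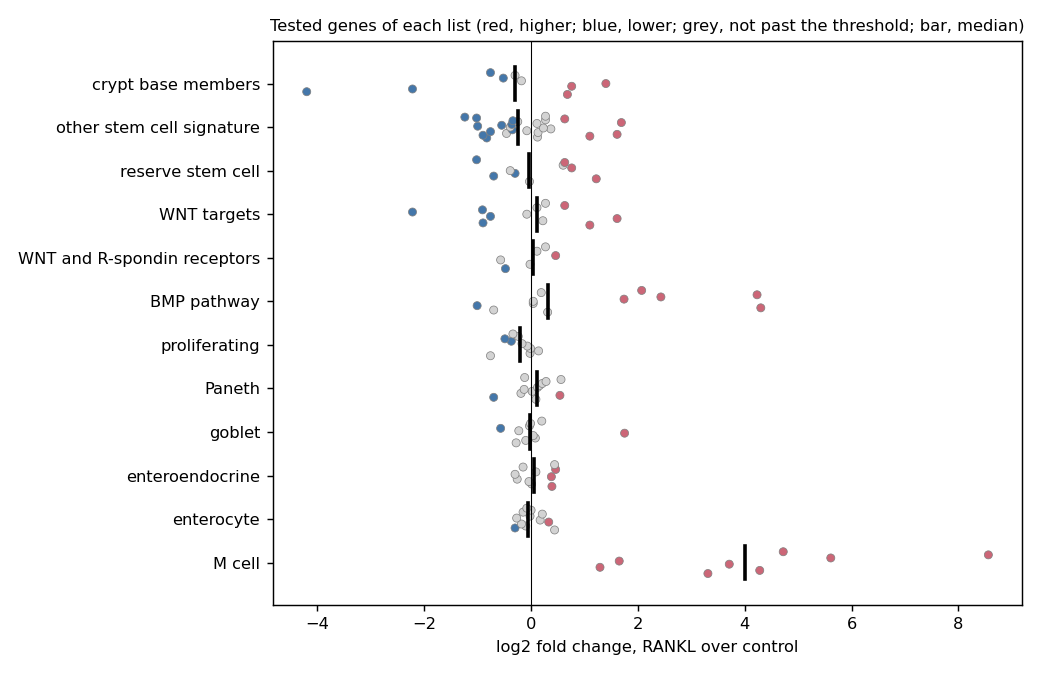
Log2 fold change of the tested genes in 12 lists, RANKL over control, with genes past the threshold in red (higher) or blue (lower), the others in grey, and the median of each list as a bar. The 9 crypt base genes spread from -4.20 to 1.40 around a median of -0.30, while the M cell markers all lie to the right with a median of 4.00.

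The genes whose pattern over the 8 libraries was most like that of Lgr5 were looked for among 8507 tested genes with a mean of at least 10 CPM. The highest Pearson correlations of log2 CPM were those of Irf8 (0.990), Zbtb38 (0.986), Cps1 (0.981), Fgfbp1 (0.980) and Selenoo (0.980). For Msi1, which rose most, they were those of Tmem246 (0.992), Rras2 (0.987), Whamm (0.987), Marcks (0.986) and Zbtb46 (0.985). These correlations are a description. The 8 libraries form 2 groups, so that any gene with groups well apart scores high, also one whose change was much smaller than that of Lgr5, such as Cps1 with a log2 fold change of -0.51. Irf8 fell from 103 to 40.9 CPM (log2 fold change -1.35) and Tmem246 rose from 76.9 to 180 CPM (1.17).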

How the data were processed

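Gene expression was measured by QuantSeq 3′ mRNA-seq, read as single reads of 50 bases, in 4 control and 4 RANKL-treated mouse intestinal organoid libraries, grouped by the sample labels. The authors trimmed reads with BBDuk, filtered out abundant sequences with bowtie2, used STAR for alignment to GRCm38, and ran featureCounts by strand on the genes of Ensembl release 94. The deposited values are raw counts per gene, without normalization, and molecular identifiers are not mentioned. The interval from pooled counts given for Gkn3 and the floors therefore cover counting error only. The intervals of the edgeR fit also include the spread between libraries. A count of 0 allows up to 3 counts.

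From these counts, edgeR 4.0.16 (R 4.3.3) was run with TMM factors, its filter on low counts, which left 9971 genes, and a quasi-likelihood test with Benjamini-Hochberg adjustment. The standard error is the log2 fold change divided by the square root of F. Symbols of 54409 of 54532 genes came from a table of gene names, and coordinates from GENCODE M21, which shares the build but is not the release counted on. Alternatives used DESeq2 1.42.0 and limma 3.58.1, and tables were made with Python 3.11.15. Scripts were tested on simulated data. The genes, lists and tests were chosen with earlier results of these data known. Genes of a list are named if called and at 5 CPM or more on average, at most the 5 of largest change, beside genes the study names, tested paralogues and the 5 genes most like Lgr5 and Msi1. Ratios, counts and shares of members, lists at 0 counts, Rnf43, Znrf3, Krt19, Acvr2a and the receptors of the BMP list are given beside this rule. Libraries of a group differed by more than counting noise (chi-square per degree of freedom 1.25 to 15.4), so none were merged.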

Additional observations from a re-analysis of the deposited data

Results flagged for a closer look

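Among the 18 groups of 4 libraries formed by the 9 genes, 2 had a library whose gap to the nearest of the others was a larger part of the group's range than Dixon's critical value for 4 samples, where chance flags about 1 in 20. RANKL replicate 4 had 865.6 CPM of Olfm4, with the next library at 1070.2 CPM. RANKL replicate 1, a library of 613135 counts, had 213.1 CPM of Clca3b, with the next at 187.8 CPM. Without RANKL replicate 4 the log2 fold change of Olfm4 was -0.1 (adjusted p = 0.56), and without RANKL replicate 1 that of Clca3b was 0.64 (adjusted p = 0.0003), on the same side of the threshold as with them.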

How the results depend on the processing

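The 9 genes kept their direction and their side of the threshold in 158 of 159 comparisons with another setting, among them DESeq2 size factors, library totals alone, the DESeq2 Wald test, limma-voom, no filter, an adjusted p of 0.01 and each library left out. The exception is Rgmb without control replicate 3. With at least 10 counts in every library, Lgr5, Gkn3 and Msi1 were not tested, and 2 of the 9 genes were called lower and 2 higher. With a library left out, 3 genes were always called higher and 4 to 5 lower, and 31 to 32 of 36 pairs did not overlap. A fold of at least 1.5 kept 3 higher and 3 lower, without Prom1. Over all genes, 2587 passed the threshold, 1636 at an adjusted p of 0.01, 1444 with a fold of at least 1.5, and 1853 to 2601 with a library left out.

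The labels do not say whether replicate numbers pair the libraries. Deviations of same-numbered libraries from their group means correlated at -0.00724, -0.0334, 0.101 and 0.035, and those of differently numbered ones at -0.134 to 0.086. These values cannot settle the question, since counting noise could hide a weak pairing. With the replicate number as a block, 2610 genes passed, and 3 of the 9 were higher and 4 lower.

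Depth limits Gkn3, whose RANKL level rests on 6 counts, and Lgr5, with 56. The dose and duration of RANKL are not stated, nor which mice these cultures came from.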

Other observations

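Paralogues of the 9 genes that were below the filter on low counts were looked at after their values were seen, with no test. Mex3b, a paralogue of Mex3a, had 4, 2, 0 and 1 counts in the control libraries, replicates 1 to 4 in order, and 7, 6, 10 and 17 after RANKL, although the RANKL libraries were on the whole shallower. Rgma, a paralogue of Rgmb, had 21, 2, 2 and 1 counts in the control and 0 in all 4 RANKL libraries, and 21 of its 26 counts came from the deepest library. Smoc1, a paralogue of Smoc2, had 45 control and 32 RANKL counts, or 2.14 ± 1.87 and 5.70 ± 0.736 CPM (SD, n = 4 each). Smoc1 and Smoc2 thus had opposite orders of the group means, at levels where a single count was worth up to 1.72 CPM.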
